A study of Arabidopsis thaliana with 6 samples.

Results

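A set of 10 genes for transporters of cadmium, zinc and related metals were followed between wild-type Arabidopsis thaliana and the fbn6-1 mutant: HMA2, HMA3, HMA4, NRAMP1, NRAMP3, NRAMP4, NRAMP6, MTP1, CAX2 and CAX4. They were taken by gene identifier, by a rule that uses no measured value, though with earlier results of these data known, and make up 10 of the 36917 genes in the count tables. All 10 identifiers were present, and 8 had enough counts to be tested. RNA-seq libraries came from 3-week-old plants of the Col-0 ecotype, grown on potting soil in long days: 3 of wild type (replicates 2, 3 and 4) and 3 of fbn6-1 (replicates 1, 2 and 3), a mutant in the same ecotype from the insertion line GK_159E10. The mutant rests on 1 line, and no metal treatment is named for these plants. Nothing says whether each replicate came from its own plants, so the p-values cover only library-to-library spread, which may be technical.

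Plants have no transporter reserved for cadmium, which is not a nutrient, and the metal crosses membranes on carriers for zinc, iron and manganese. Among the P-type ATPases of the HMA family, HMA2, HMA3 and HMA4 are known as pumps for zinc and cadmium, out of cells or into the vacuole. NRAMP proteins carry divalent metals into the cytosol from outside or from the vacuole, whereas MTP and CAX proteins move metals from the cytosol into the vacuole in exchange for protons. In Arabidopsis, loss of HMA2 and HMA4 together is known to block the passage of zinc and cadmium from root to shoot.

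The libraries held 8668956 to 12287197 counts, of which 59.7% to 62.5% fell on plastid and mitochondrial genes, which left 3257770 to 4955128 for nuclear genes. FBN6 had 1557 to 2201 counts in the wild-type libraries and 3 to 7 in the mutant libraries. The labels name plants and no organ, and of 12 root markers 6 to 9 were at 0 in each library, among them EXPA7, CASP1, TIP2;3 and MYB36 in every one. The summed root marker level was 12.31 to 14.04 CPM (the count per library, scaled to a common library size with TMM) in wild type and 12.24 to 13.51 CPM in the mutant, most of it from SCR and SHR, which are also active in shoots. SCR (-0.22) and SHR (-0.16), the only root markers tested, were not called (log2 fold changes), although SCR was lower in every mutant library on this TMM scale. PYK10, a root and hypocotyl glucosidase gene that was too low to test and is named after its values were seen, stood at 0 to 0.24 CPM in wild type and 0.68 to 1.06 CPM in the mutant. The part of root material in the transporter values was not tested, and in bulk tissue fewer cells of a type and less RNA per cell cannot be told apart.

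The 300 bases before the annotated gene start were read from the RefSeq TAIR10.1 assembly for all 10 genes, since transcription factors of metal supply bind short motifs there. Shown are NRAMP1, the transporter gene that differed between the genotypes, HMA2, the next in order of adjusted p, and IRT3, a zinc and iron transporter gene outside the set that was called higher in 14 of 15 alternatives. The windows lie on the minus strand at chr1:30376073-30376372, chr4:14725312-14725611 and chr1:22447300-22447599. They are written 5′ to 3′ and end at the last base before the gene. Capitals mark TGTCGACA, the palindromic core of the element bound by the zinc sensors bZIP19 and bZIP23, and GTAC, the core of the copper response element bound by SPL7.
NRAMP1: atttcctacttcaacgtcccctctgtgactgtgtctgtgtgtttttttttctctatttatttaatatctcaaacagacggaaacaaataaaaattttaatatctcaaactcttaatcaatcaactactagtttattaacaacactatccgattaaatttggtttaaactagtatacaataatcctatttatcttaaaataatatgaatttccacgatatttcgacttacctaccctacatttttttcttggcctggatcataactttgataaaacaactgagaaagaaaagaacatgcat
HMA2: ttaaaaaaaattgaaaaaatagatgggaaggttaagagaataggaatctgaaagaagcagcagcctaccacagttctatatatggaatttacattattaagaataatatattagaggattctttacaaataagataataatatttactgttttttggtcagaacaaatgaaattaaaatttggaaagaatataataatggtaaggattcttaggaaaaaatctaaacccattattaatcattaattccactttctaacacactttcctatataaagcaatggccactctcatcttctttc
IRT3: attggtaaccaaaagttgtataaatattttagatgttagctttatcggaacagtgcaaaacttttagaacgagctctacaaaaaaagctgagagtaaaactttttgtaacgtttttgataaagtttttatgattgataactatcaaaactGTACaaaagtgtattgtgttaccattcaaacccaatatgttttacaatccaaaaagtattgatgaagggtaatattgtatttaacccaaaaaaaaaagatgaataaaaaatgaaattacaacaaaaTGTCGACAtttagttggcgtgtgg
TGTCGACA was in 0 of the 10 transporter windows, and 0.324% of 27443 windows of nuclear protein-coding genes hold it. With so low a share, its absence from 10 windows says nothing particular about this set. In the list of the zinc deficiency response and the ZIP family, 4 of 18 windows held TGTCGACA: those of ZIP4, ZIP10, ZIP12 and IRT3. In the IRT3 window it begins 24 bases before the gene. That list was chosen for the zinc response, so its count is not a test of the motif. ZIP4, too low to test, stood at 1.36, 1.08 and 0.967 CPM in wild type and 0.676, 0.532 and 0.568 CPM in the mutant. ZIP10 and ZIP12 had 0 counts in every library. GTAC was in 3 of the 10 windows (HMA4, NRAMP4 and CAX2), against 39.7% of all windows. The G-box CACGTG was in 0 of the 10, against 7.09%, and the W-box core TTGAC, searched on both strands, in 4 of 10 (HMA3, NRAMP4, NRAMP6 and CAX4), against 50.4%. Neither the NRAMP1 nor the HMA2 window held any of the 4 motifs, none of which contains another. A match is a description of letters in this window and not evidence of binding.

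In wild type the 10 genes spanned a wide range of levels. Per kilobase of annotated exon, HMA2 was highest at 9.59 ± 1.37 CPM per kb (SD, n = 3), followed by NRAMP4 at 7.48 ± 0.569, MTP1 at 6.87 ± 0.241, NRAMP1 at 5.72 ± 0.889, CAX2 at 5.39 ± 0.729 and NRAMP6 at 4.94 ± 0.850. A clear step lower stood HMA4 at 1.97 ± 0.354 CPM per kb and NRAMP3 at 1.25 ± 0.0981. The wild-type libraries of HMA2 did not overlap those of NRAMP4, and those of NRAMP6, HMA4 and NRAMP3 were also separate from their next lower neighbour, whereas the neighbours from NRAMP4 down to NRAMP6 overlapped. HMA2 stood at or above 77.6% of the tested genes on this scale and NRAMP3 at or above 15.5%. In the mutant the same 3 genes led the order, with HMA2 at 7.12 ± 0.581, NRAMP4 at 6.26 ± 0.254 and MTP1 at 6.03 ± 0.815 CPM per kb. NRAMP1 moved from rank 4 to rank 6, to 3.09 ± 0.155 CPM per kb, and its 3 mutant libraries lay below all those of CAX2 and NRAMP6.

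**Figure D1:**
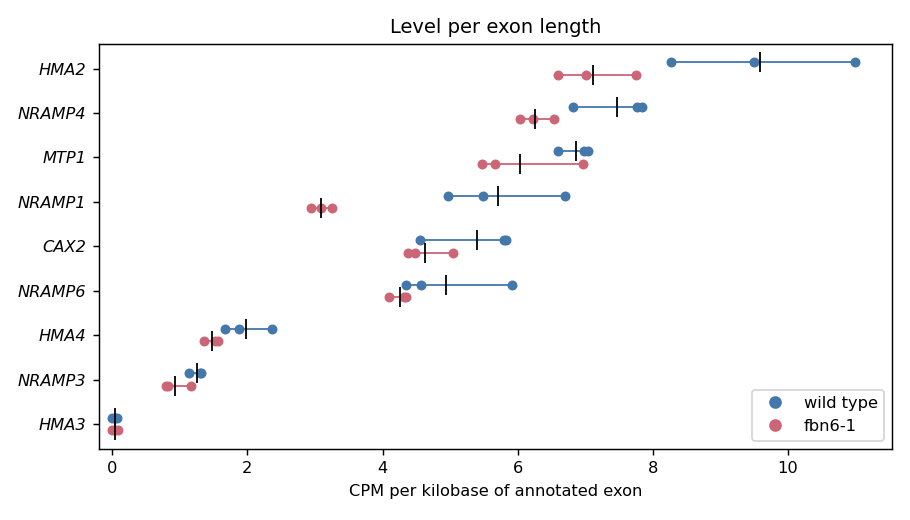
Level of each transporter gene per exon length. The x axis gives CPM per kilobase of annotated exon, dots are libraries, lines their range and black ticks the mean of 3 libraries per genotype; CAX4, with 0 counts, is not drawn. NRAMP1 drops from among the middle genes in wild type (5.72) to below them in the mutant (3.09).

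Of the 8 tested genes, 1 fell in the mutant, NRAMP1, and 0 rose; the other 7 were not called (edgeR quasi-likelihood test, adjusted p under 0.05 over 16584 genes). Among all tested genes 2.34% were called lower, 1.48% higher and 3.82% in either direction (388 lower and 245 higher). That split depended on the scaling, since library size alone gave 195 lower and 508 higher, and on the libraries, since the lower calls numbered 775 without wild-type replicate 3 and 171 to 215 without any one of the other 5. An unadjusted p under 0.05 was found for 3 of the 8 (NRAMP1, HMA2 and HMA4), all lower in the mutant, against 17.8% of all tested genes. DESeq2 and limma-voom also called 1 lower and 0 higher. All 8 fold changes lay below 0, with a median of -0.33 on the log2 scale, whereas the median of all tested genes was 0.00 and 50.5% of them lay below 0. In 4 of the 8, NRAMP1, HMA2, HMA4 and NRAMP4, every mutant library was below every wild-type library in TMM-scaled CPM. This compares with 12.1% of tested genes that separated in this direction and 10.9% in the other, while 0 of the 8 separated upward. The TMM factors were 0.9218 to 0.9979 in wild type and 1.018 to 1.087 in the mutant. By total counts, HMA4 in wild-type replicate 2 (68 of 10372888) lay below mutant replicate 1 (89 of 12287197). The same held for NRAMP4 (157 against 200 counts), so for HMA4 and NRAMP4 the separation depended on the scaling.

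**Figure D2:**
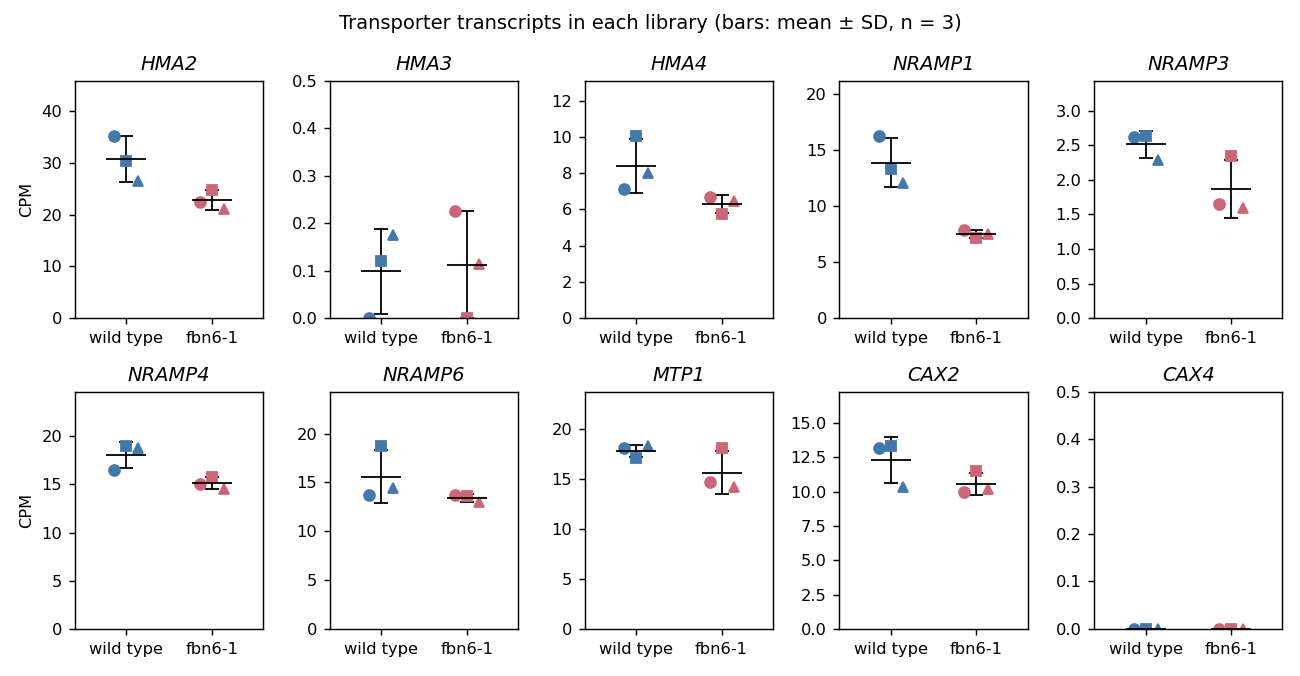
Transcript level of the 10 transporter genes in each library. The y axis gives CPM on a scale that starts at 0 for each gene, symbols are the 3 libraries of a genotype, horizontal lines the mean and error bars the SD. In these TMM-scaled values the genotypes are separate for HMA2, HMA4, NRAMP1 and NRAMP4, HMA3 has 0 to 3 counts per library and CAX4 has 0.

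NRAMP1 (AT1G80830), the plasma membrane carrier known for high-affinity manganese uptake and for carrying iron and cadmium, was the gene that fell. It stood at 16.2, 13.3 and 12.0 CPM in wild-type replicates 2, 3 and 4 and at 7.88, 7.13 and 7.50 CPM in mutant replicates 1, 2 and 3. The lowest wild-type library was above the highest mutant library, and the mutant libraries lay closer together than those of wild type. The mean went from 13.9 ± 2.16 to 7.50 ± 0.375 CPM, to 54.4% of wild type (log2 fold change -0.88, SE 0.16, 95% interval -1.22 to -0.54, adjusted p = 0.00626, edgeR quasi-likelihood test). The counts behind these levels were 155, 111 and 137 for wild type, against 105, 67 and 66 for fbn6-1. The call held in all 15 alternatives run, with an adjusted p of up to 0.0430 when 1 library was left out. NRAMP1 lies on chromosome 1 (chr1:30372668-30376072 in TAIR10.1, minus strand), and 132 of its 2425 exon bases overlap CCR2, a gene on the opposite strand with 2 to 14 counts per library. All of its exon windows of 50 bases occur once in the genome.

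By root mean square difference of centred log2(CPM + 0.5) profiles over the 6 libraries, the nearest of 9909 other genes averaging 5 CPM or more were FLA13, AT5G44530 and AT5G52540. Their differences from the NRAMP1 profile were 0.024, 0.0828 and 0.0869 on the log2 scale. FLA13, named as a fasciclin-like arabinogalactan protein gene, stood at 25.9 CPM in wild type and 14.5 CPM in the mutant (log2 fold change -0.83, SE 0.14, adjusted p = 0.00343, edgeR). These genes were picked for their likeness to a called gene, so their own calls add nothing to it.

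NRAMP3 and NRAMP4, whose products are known to release iron and manganese from the vacuole and can carry cadmium, were not called. NRAMP4 (AT5G67330) stood at 16.45, 18.93 and 18.72 CPM in wild type and 15.01, 15.76 and 14.54 CPM in the mutant. With TMM scaling these groups were separate by a narrow margin, which total counts did not keep. The log2 fold change was -0.26 (SE 0.12, 95% interval -0.52 to 0.01, adjusted p = 0.301, edgeR). NRAMP3 (AT2G23150) stood at 2.62, 2.64 and 2.29 CPM in wild type and 1.65, 2.34 and 1.59 CPM in the mutant, from 14 to 26 counts per library. Mutant replicate 2 lay within the wild-type range, and the log2 fold change was -0.43 (SE 0.29, 95% interval -1.05 to 0.18), so at this depth neither a halving nor an equal level is outside the interval.

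NRAMP6 (AT1G15960), which encodes an intracellular NRAMP protein linked to cadmium toxicity, stood at 13.7, 18.7 and 14.4 CPM in wild type and 13.7, 13.6 and 13.0 CPM in the mutant. Wild-type replicate 3 was high and the other libraries were close together (log2 fold change -0.21, SE 0.14, adjusted p = 0.498, edgeR). Of its 3160 exon bases 473 overlap CCR1 on the opposite strand, which stood at 58.5 ± 11.8 and 57.9 ± 2.28 CPM. On the same strand 66 overlap AT1G05213, at 24.8 ± 4.70 CPM in wild type and 24.6 ± 1.86 CPM in the mutant. Both neighbours were highest in wild-type replicate 3 as well. No source used here says whether counting used strand, so reads of NRAMP6 and CCR1 cannot be fully told apart. Strand could not separate reads in the overlap with AT1G05213.

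Within a library, the ratio of NRAMP1 to another NRAMP gene does not depend on the scaling between libraries. NRAMP1 had 6.10, 4.96 and 5.19 counts per count of NRAMP3 in wild type, against 4.69, 3.00 and 4.59 for fbn6-1. All 3 mutant ratios were below all 3 wild-type ratios, and the mean log2 ratio differed by -0.43 (exact permutation test, two-sided, p = 0.1, the smallest that 3 against 3 libraries allow). Without mutant replicate 2 this difference was -0.22. Against NRAMP4, a more deeply counted gene chosen after its values were seen, NRAMP1 had 0.987, 0.704 and 0.644 counts per count in wild type, against 0.526, 0.455 and 0.518 for fbn6-1, a difference in mean log2 ratio of -0.62 (exact permutation p = 0.1).

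The zinc and cadmium exporter genes HMA2 and HMA4, whose products load metals into the xylem, were lower in every mutant library in TMM-scaled CPM but were not called. For HMA4 that separation depended on the scaling. HMA2 (AT4G30110) stood at 35.2, 30.4 and 26.5 CPM in wild type and 22.4, 24.8 and 21.1 CPM in the mutant. The lowest wild-type library was just above the highest mutant library, and the level went to 74.4% of wild type (log2 fold change -0.43, SE 0.13, 95% interval -0.70 to -0.15, adjusted p = 0.0831, edgeR). HMA2 was called without the filter on low counts (adjusted p = 0.0353) and in none of the other 14 alternatives, where the adjusted p reached 0.270. HMA4 (AT2G19110) stood at 7.13, 10.06 and 8.00 CPM in wild type and 6.68, 5.75 and 6.48 CPM in the mutant, a level of 75.7% of wild type (log2 fold change -0.40, SE 0.18, 95% interval -0.78 to -0.02, adjusted p = 0.253). Both intervals exclude a halving, and their upper ends lie at -0.15 and -0.02. With library size only, the log2 fold changes were -0.29 for HMA2 and -0.27 for HMA4.

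HMA2 had 4.91, 3.01 and 3.30 counts per count of HMA4 in wild type, against 3.35, 4.28 and 3.24 for fbn6-1. The groups overlapped, and the mean log2 ratio differed by -0.02 (exact permutation test, two-sided, p = 0.9), which became 0.19 without wild-type replicate 2. Of 8 vascular markers, given here because both genes are known from vascular tissue, 7 were tested and 1 fell, the phloem regulator APL (11.2 ± 1.02 against 6.28 ± 1.24 CPM, log2 fold change -0.81, SE 0.18, adjusted p = 0.0194, edgeR). Of all tested genes 2.34% were called lower. The APL call was lost when wild-type replicate 2, mutant replicate 2 or mutant replicate 3 was left out, with an adjusted p of up to 0.101 (edgeR). It was also lost with library size alone and at a threshold of 0.01. Of the 7, 3 lay below 0 and 4 above, with a median log2 fold change of 0.08. The summed level of the 8 was 158.7 to 191.4 CPM in wild type and 157.4 to 170.8 CPM in the mutant, and none was at 0. Their part in the HMA2 and HMA4 values was not tested.

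HMA3 (AT4G30120), the neighbour of HMA2 on chromosome 4, was barely counted: 0, 1 and 2 counts for wild type, against 3, 0 and 1 for fbn6-1, at or below a floor of 3 counts per library (0.225 to 0.359 CPM). No fold change can be given at this level. HMA3 encodes a vacuolar pump for zinc and cadmium in other accessions, and the Col-0 allele is known to carry a frameshift. Its longest annotated coding sequence is 1629 bases, against 2856 for HMA2 and 3519 for HMA4. The genes lie on the same strand with 4903 bases between them (HMA2 at chr4:14720062-14725311 and HMA3 at chr4:14730215-14733628 in TAIR10.1), and all exon windows of 50 bases of both occur once in the genome.

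The vacuolar importers were not called. MTP1 (AT2G46800), the zinc and proton antiporter of the vacuolar membrane, stood at 18.1, 17.1 and 18.3 CPM in wild type and 14.7, 18.1 and 14.2 CPM in the mutant. Mutant replicate 2 was at the wild-type level (log2 fold change -0.19, SE 0.13, 95% interval -0.47 to 0.09, adjusted p = 0.493, edgeR). CAX2 (AT3G13320), a proton exchanger that moves manganese, calcium and cadmium into the vacuole, stood at 13.2, 13.3 and 10.4 CPM in wild type and 9.98, 11.5 and 10.2 CPM in the mutant. Wild-type replicate 4 lay among the mutant libraries (log2 fold change -0.21, SE 0.15, 95% interval -0.54 to 0.11, adjusted p = 0.507). Both intervals exclude a halving. For MTP1, 98.8% of exon windows of 50 bases occur once in the genome, and for CAX2 all of them. CAX4 (AT5G01490), a related exchanger of the vacuolar membrane, had 0 counts in all 6 libraries, which allows a level of up to 0.225 to 0.359 CPM per library by the same floor of 3 counts, for counting error only.

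**Figure D3:**
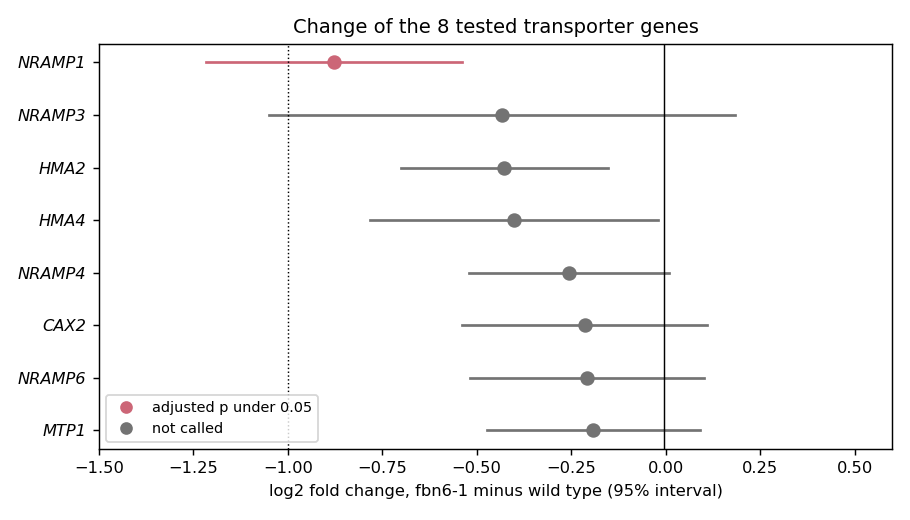
Log2 fold change of the 8 tested transporter genes, fbn6-1 minus wild type. Dots are estimates, lines 95% intervals, the solid line the median of all tested genes and the dotted line a halving; NRAMP1 (-0.88) is the gene called, and the interval of NRAMP3 (-1.05 to 0.18) is the widest of the 8.

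Of 23 other genes of the 4 families 15 were tested, and 0 were called by edgeR, against 3.82% of all tested genes in either direction. DESeq2 called 1 lower, as did edgeR without the low-count filter, and limma-voom called 0. An unadjusted p under 0.05 (edgeR) was found for 4 of the 15, against 17.8% of all tested genes. Of the 15, 9 lay below 0 and 6 above, with a median log2 fold change of -0.02, against -0.33 for the 8 transporter genes above. The 15 were taken by family and not by the metal carried, so these medians are not of like sets. CAX1, the calcium exchanger of the vacuole and by counts the most abundant of the families, stood at 363 ± 63.1 and 349 ± 9.81 CPM. CAX3, named after its values were seen, stood at 5.34 ± 2.76 CPM in wild type and 2.20 ± 0.846 CPM in the mutant and was not called (log2 fold change -1.28, SE 0.36, adjusted p = 0.0642, edgeR).

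In the list of the zinc deficiency response and the ZIP family, 18 of 19 genes were matched in the files and 8 were tested. Of these 1 rose and 0 fell, against 1.48% and 2.34% of all tested genes. An unadjusted p under 0.05 (edgeR) was found for 2 of the 8, against 17.8% of all tested genes. IRT3 rose from 3.35, 2.64 and 2.55 CPM in wild type to 7.81, 8.09 and 5.79 CPM in the mutant. The groups were far apart (log2 fold change 1.35, SE 0.22, adjusted p = 0.00300, edgeR). IRT3 was called in 14 of 15 alternatives and lost with the replicate number as a block (adjusted p = 0.0654). The sensor genes bZIP19 (0.00) and bZIP23 (0.37) were not called, and the root iron transporter gene IRT1 had 0 or 1 count per library. The list median was 0.01.

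Of 13 tested genes for the chelation and vacuolar storage of cadmium 2 fell, MT2A (from 48.5 ± 2.73 to 36.1 ± 3.99 CPM, adjusted p = 0.0458) and MT2B (from 406 ± 103 to 274 ± 27.2 CPM, adjusted p = 0.0497), and 0 rose. Both encode metallothioneins, small proteins that bind metals through cysteines. Leaving out 1 library kept the MT2A call in 1 of 6 fits (the one lacking wild-type replicate 3) and the MT2B call in 1 of 6 (the one lacking wild-type replicate 4). Each was called in 6 of all 15 alternatives, with adjusted p up to 0.462 for MT2A and 0.212 for MT2B. The phytochelatin synthase gene PCS1 (0.38) and the vacuolar phytochelatin transporter genes ABCC1 (-0.23) and ABCC2 (0.04) were not called (log2 fold changes). The list median was -0.23, and among all tested genes 2.34% were called lower and 1.48% higher.

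Of 14 tested genes for iron and manganese handling 6 fell and 0 rose, against 2.34% and 1.48% of all tested genes. The median log2 fold change of the list was -0.47. Like the other lists, it was chosen with earlier results of these data known, so its count is not a test of the list. By adjusted p the first 3 were YSL3 (-1.63, SE 0.14, adjusted p = 1.65e-05), FER1 (-1.71, SE 0.16, adjusted p = 4.16e-05) and YSL1 (-1.54, SE 0.16, adjusted p = 6.60e-05, edgeR). YSL1 and YSL3 encode carriers of metal-nicotianamine complexes, and FER1 a plastid ferritin that stores iron. YSL3 went from 25.0 ± 3.48 to 8.10 ± 0.257 CPM and FER1 from 141 ± 38.8 to 43.2 ± 4.82 CPM, with no overlap of the groups. All 3 were called in the 15 alternatives, as were YSL2 and NAS3. FER4, the remaining gene that fell, was called in 10 of 15. It was called in 3 of the 6 fits without 1 library, with an adjusted p of up to 0.0837 (edgeR).

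**Figure D4:**
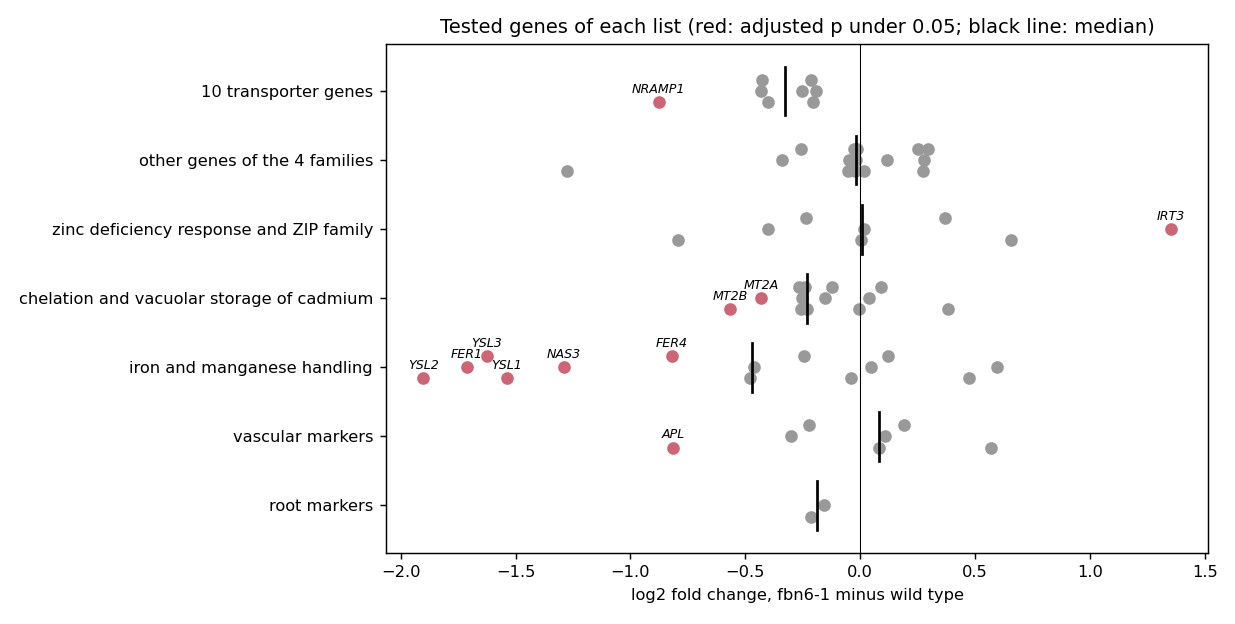
Log2 fold change of the tested genes of each list, fbn6-1 minus wild type. Each dot is a gene, red dots with a name have an adjusted p under 0.05 and black lines are list medians; 1 of the 8 transporter genes (NRAMP1) and 6 of 14 iron and manganese genes are called lower, and IRT3 is called higher (lost with a replicate block).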

How the data were processed

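RNA from 3-week-old plants was extracted with Trizol, purified on columns and prepared with Illumina Tru-Seq, per the labels' protocols. The authors deposited raw counts per gene, 1 table per library. The submitters' processing notes name Trimmomatic, FastQC, TopHat2 2.1.1, featureCounts and the TAIR10 build; for settings, annotation release, multi-mapping and strand use, the entry is: not given in the sources used here. Library totals of 8668956 to 12287197 counts limit precision for genes with few counts; intervals and floors cover counting error only where stated.

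The test was edgeR 4.0.16 under R 4.3.3 (TMM, filterByExpr with minimum count 10 and total 15, quasi-likelihood test, two-sided, genotype only). P-values were adjusted by Benjamini-Hochberg over all 16584 tested genes, and a gene was called under 0.05. Intervals of fold changes are 95%. CPM are counts over the TMM-scaled library size, and CPM per kb divides by the exon length in the RefSeq annotation of TAIR10.1. That annotation carries the MTP1 symbol as ZAT. Count ratios used a pseudocount of 0.5 and an exact permutation test (scipy 1.17.1). The fit was tested on simulated data first. It recovered 67% of 94 genes with an absolute log2 change of 1 and 99% of 97 genes with a change of 2. Of its 174 calls 15 were false. Smaller changes were not simulated.

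The members and lists were chosen with earlier results of these data known. Named genes are the 10 members, FBN6, up to 3 called genes per list and direction by adjusted p, and the 3 profiles nearest to a called member. Outside this rule, chosen after their values were seen, are PYK10, CAX1, CAX3, bZIP19, bZIP23, IRT1, PCS1, ABCC1, ABCC2, YSL2, NAS3 and FER4. SCR, SHR and other markers are named from the marker lists. CCR1, CCR2 and AT1G05213 are named for their overlap with a member, and ZIP4, ZIP10 and ZIP12 for a motif in their windows. Alternatives were RLE factors, library size only, DESeq2 1.42.0, limma-voom (limma 3.58.1), no filter, at least 1 CPM in 3 libraries, removal of organelle genes, a threshold of 0.01, the replicate number as a block, and fits without each library in turn. Of 6 flower markers 0 were tested, and their summed level was 0.826 to 1.36 CPM.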

Additional observations from a re-analysis of the deposited data

How the results depend on the processing

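NRAMP1 was lower and called in all 15 alternatives, with log2 fold changes from -1.01 to -0.74, and from -0.98 to -0.75 when 1 library was left out (adjusted p from 0.00243 to 0.0430, edgeR). The 7 other tested transporter genes lay below 0 in every alternative, also with library-size scaling, which moved the median of all genes to 0.13 and gave NRAMP1 -0.74, HMA2 -0.29 and MTP1 -0.06. Without the low-count filter 2 transporter genes were called lower, NRAMP1 and HMA2. Over the 4 lists of related genes (15, 8, 13 and 14 tested), 8 genes were called lower and 1 higher, against 2.34% and 1.48% of all tested genes. The lower calls numbered 5 at an adjusted p under 0.01, 6 with library size only, 7 with RLE factors and 10 with no filter. The higher calls numbered 2 with library size only and 3 with no filter. With 1 library left out the lower calls ranged from 5 to 8 and the higher calls from 1 to 4. The difference in log2 ratio of NRAMP1 to NRAMP3 ranged from -0.54 to -0.22, and that of HMA2 to HMA4 from -0.16 to 0.19, with a change of sign without wild-type replicate 2 (0.19), mutant replicate 1 (0.03) or mutant replicate 3 (0.05); NRAMP4 in place of NRAMP3, chosen after the data were seen, gave -0.62.

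Only replicate numbers 2 and 3 occur in both genotypes, and no label ties them to a shared batch. Deviations from the group means correlated at -0.0743 and 0.113 for these numbers over 9910 genes. These values cannot show whether libraries of the same number shared a batch. With the replicate block, 5 list genes were called lower and 0 higher (IRT3 had an adjusted p of 0.0654), NRAMP1 stayed called (-1.01, adjusted p = 0.0338), and over all genes 118 were called lower and 73 higher, against 388 and 245. The same counts were 727 and 505 with no filter, 151 and 69 at an adjusted p under 0.01, 195 and 508 with library size only, and 171 to 775 lower and 84 to 463 higher with 1 library left out (highest without wild-type replicate 3). MT2A was also lost with library size only, DESeq2, the block and the stricter threshold, and MT2B with RLE factors, library size only, the block and the stricter threshold. Low depth limits NRAMP3, HMA3 and CAX4.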
